A study of Mus musculus with 13 samples.

Results

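The 38 genes described here encode the receptors, vesicular transporters and GABA-producing enzymes through which neurons signal with glutamate and GABA. They were chosen by name, as AMPA, NMDA, kainate and delta receptor subunits, metabotropic glutamate receptors, GABA-A and GABA-B receptor subunits, vesicular transporters for both transmitters and glutamate decarboxylases. An accessible region was given to a member when its strongest summit lay within 50 kb of the gene body, and to the nearest member where more than 1 qualified. By this rule 6069 of the 1360342 regions called over 13 ATAC-seq libraries belonged to the 38 members, which are 38 of the 21911 protein-coding genes of the annotation.

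ATAC-seq cuts open chromatin with the Tn5 transposase, so a called region marks DNA that was accessible in the cells used, here 50000 cells per library. The tissues were the forebrain (FB) and the distal (DFL) and proximal (PFL) parts of the forelimb, taken from B6CBAF1 mouse embryos at E12.5. The wild type (wt) was compared with embryos carrying the 542 allele, an insertion of the II1 T-DOM enhancer transgene on chromosome 2 that descends from a single founder. Each of the 6 groups of tissue and genotype held 2 libraries, each from a pool of embryos of different litters, and 1 additional wt DFL library, a new processing of an earlier sample, was kept out of every test.

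Glutamate opens AMPA, NMDA and kainate receptors, which are cation channels, and acts more slowly through metabotropic receptors. GABA is made from glutamate by glutamate decarboxylase, is loaded into vesicles by the transporter encoded by Slc32a1, and acts on GABA-A chloride channels and on metabotropic GABA-B receptors. At midgestation the forebrain holds dividing progenitors and the first neurons of the cortex and of the ganglionic eminences, whereas the limb bud holds mesenchyme, muscle precursors and ingrowing nerves whose neuronal nuclei lie outside the limb. Accessible DNA far from a start site often marks an enhancer, but accessibility does not show that a gene is transcribed.

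The sequences below lie under the strongest summits of the regions that separated the tissues, and they are shown because the tissue difference of the members lay mostly in such intronic and intergenic DNA. Each is 300 bases of the plus strand of GRCm38 (mm10), centred on the summit. Capitals mark every match, on either strand, to the letters CAGATG and CAGCTG, which are E-boxes bound by basic helix-loop-helix factors, and TAATTA, a core bound by many homeodomain factors. The first 5 were among the 50000 strongest regions of all 4 forebrain libraries and of no limb library.
Grik2 intron, chr10:49322494-49322793: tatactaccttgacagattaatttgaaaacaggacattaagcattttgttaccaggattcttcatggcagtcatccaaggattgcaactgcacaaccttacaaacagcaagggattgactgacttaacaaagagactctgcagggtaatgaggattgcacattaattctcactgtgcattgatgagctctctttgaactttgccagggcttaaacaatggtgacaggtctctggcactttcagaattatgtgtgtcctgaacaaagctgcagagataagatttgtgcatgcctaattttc
Grik1 intron, chr16:87973758-87974057: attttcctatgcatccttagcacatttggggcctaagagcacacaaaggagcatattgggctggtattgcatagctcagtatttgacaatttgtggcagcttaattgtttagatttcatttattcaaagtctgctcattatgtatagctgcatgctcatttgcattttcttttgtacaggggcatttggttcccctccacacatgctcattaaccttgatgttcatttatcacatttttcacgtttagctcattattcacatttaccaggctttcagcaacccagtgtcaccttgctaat
Grid1 intron, chr14:34969158-34969457: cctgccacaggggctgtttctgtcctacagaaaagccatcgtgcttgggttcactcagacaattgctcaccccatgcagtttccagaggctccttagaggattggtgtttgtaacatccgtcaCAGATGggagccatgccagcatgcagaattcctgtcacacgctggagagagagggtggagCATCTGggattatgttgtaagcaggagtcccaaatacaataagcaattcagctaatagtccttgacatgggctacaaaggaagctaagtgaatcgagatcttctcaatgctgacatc
Grik3 intron, chr4:125696193-125696492: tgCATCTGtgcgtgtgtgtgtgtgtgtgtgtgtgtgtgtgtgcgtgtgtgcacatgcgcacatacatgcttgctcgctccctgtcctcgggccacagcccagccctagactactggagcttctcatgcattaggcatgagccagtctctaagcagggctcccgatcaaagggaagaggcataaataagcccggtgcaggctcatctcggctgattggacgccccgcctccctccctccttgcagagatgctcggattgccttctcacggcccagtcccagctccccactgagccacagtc
Gabrb2 intergenic, chr11:42654253-42654552: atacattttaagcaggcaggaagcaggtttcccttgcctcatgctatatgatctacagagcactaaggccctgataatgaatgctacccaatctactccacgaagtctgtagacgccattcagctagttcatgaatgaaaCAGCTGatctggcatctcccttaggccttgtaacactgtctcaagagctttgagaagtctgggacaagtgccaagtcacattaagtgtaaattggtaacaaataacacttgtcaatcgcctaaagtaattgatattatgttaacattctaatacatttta

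Only the Grid1, Grik3 and Gabrb2 windows of these 5 held a capitalised match. The next pair lay in regions among the 50000 strongest of all 8 limb libraries and of no forebrain library, and both held CAGCTG.
Grin2b intron, chr6:136130492-136130791: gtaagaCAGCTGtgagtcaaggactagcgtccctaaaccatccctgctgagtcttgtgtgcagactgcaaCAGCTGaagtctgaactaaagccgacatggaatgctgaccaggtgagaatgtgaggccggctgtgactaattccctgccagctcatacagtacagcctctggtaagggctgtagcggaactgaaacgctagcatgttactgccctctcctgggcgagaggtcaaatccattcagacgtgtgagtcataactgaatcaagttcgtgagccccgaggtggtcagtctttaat
Grm4 intron, chr17:27505464-27505763: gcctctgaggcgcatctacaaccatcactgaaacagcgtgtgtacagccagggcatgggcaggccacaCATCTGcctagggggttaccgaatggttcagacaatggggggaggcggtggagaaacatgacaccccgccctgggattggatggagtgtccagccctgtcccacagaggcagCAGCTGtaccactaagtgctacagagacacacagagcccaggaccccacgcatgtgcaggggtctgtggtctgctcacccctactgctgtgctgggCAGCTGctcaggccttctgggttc

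Another set is shown because it carries letters of the element bound by the repressor REST, which is known to silence neuronal genes outside the nervous system. The letters CAGCACC, then 2 bases of any kind, then GGACAG (capitals below) were searched on both strands after matches to shorter pieces of the element had been seen. They stood under the summits of 3 of the 504 joined member regions (0.595%) and of 210 of all 110782 joined regions (0.19%). Among regions separating the tissues as above, they stood in 0 of 9715 of the forebrain kind and 20 of 5338 of the limb kind (0.375%). None of the 3 member regions was of either kind, and a role of REST was not tested.
Grid1 intron, plus strand, chr14:34867442-34867464: aggtCAGCACCtcGGACAGcgcc
Gad1 intron, minus strand, chr2:70559698-70559720: acttCAGCACCgaGGACAGcgcc
Gabra2 intergenic, minus strand, chr5:71128072-71128094: tggtCAGCACCaaGGACAGagac

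The 13 libraries held between 85070 and 131691 called regions each. Their depth, recovered from the deposited background values, was 51.4 to 70.7 M tags (M is 1000000) in forebrain, 37.5 to 54.5 M in the 8 limb libraries compared and 78.0 M in the additional library, so depth moved with tissue and its part in the differences was not tested. For this reason presence and numbers of regions were compared in the 50000 strongest regions of each library. Promoters of all 7 forebrain markers examined were called in every forebrain library but also in limb libraries. Of 5 limb markers, Prrx1, Twist1 and Msx1 were called in all 4 forebrain libraries and Prrx2 in 3, and Tbx5 alone in 0 of 4, against 3 of 4 DFL and 3 of 4 PFL libraries. At most of these markers a called promoter therefore did not tell the tissues apart. Among distal limb markers, Hoxa13 was called in 1 forebrain, 4 DFL and 4 PFL libraries, and Hoxd13 in all. Among muscle markers, Myf5 was called in 0, 2 and 4, and Myod1 and Pax3 in all. The proximal limb marker Meis2 was called in all, and Meis1 in 4, 4 and 3. Among nerve glia markers, Erbb3 was called in all, Foxd3 in 2, 1 and 1, and Sox10 in 0, 0 and 1. Of 3 blood markers, Gata1 and Ptprc were called in none of the 12 libraries compared and Spi1 in 1 library of each tissue. Of 3 endothelial markers, Pecam1 was called in none, Cdh5 in 1 forebrain and 1 PFL library, and Tek in all 12, with mean folds of 2.96 in forebrain, 6.47 in DFL and 6.13 in PFL; the part of such cells in the differences was not tested. In whole tissue, fewer cells of a type and less accessibility per cell cannot be told apart.

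Regions of the 38 genes made up a larger share of the called regions in every forebrain library than in any limb library. The share was 0.597% and 0.594% in wt FB, and 0.571% and 0.560% in 542 FB. In limb it was 0.409% and 0.377% in wt DFL, 0.422% and 0.402% in 542 DFL, 0.349% and 0.370% in wt PFL, and 0.396% and 0.393% in 542 PFL. Forebrain and limb did not overlap, and the additional wt DFL library, the deepest, stood among the limb libraries at 0.392%. The difference lay in distal DNA, here all positions outside promoters: distal member regions numbered 45.2 to 49.8 per 10000 regions in forebrain and 26.3 to 32.4 in limb. Promoter regions of members overlapped between the tissues, with 4.59 to 4.91 per 10000 in forebrain and 3.95 to 5.17 in limb.

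**Figure D1:**
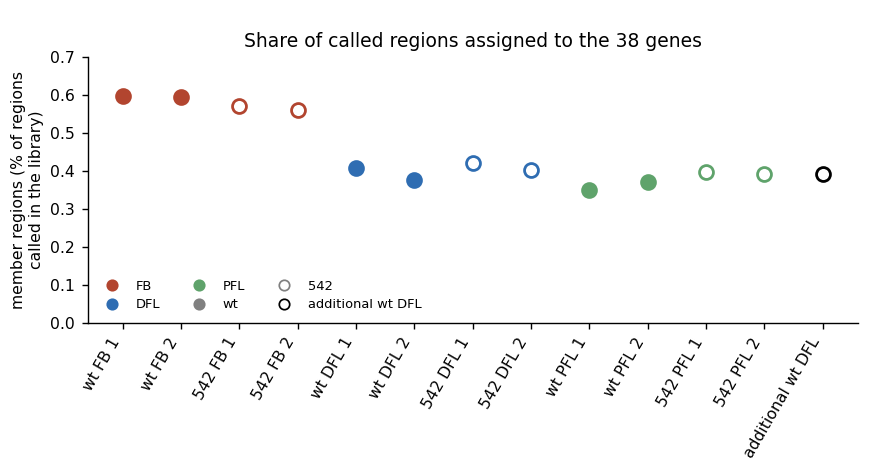
Regions assigned to the 38 genes by library, as a share of all regions called in that library; each point is 1 library, coloured by tissue. The 4 forebrain libraries lie between 0.560% and 0.597%, above all 8 limb libraries and the additional wt DFL library at 0.392%.

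To ask which members differed, the regions within 50 kb of each gene were counted among the 50000 strongest per library, and log2(number + 1) was tested by limma over 19745 protein-coding genes with Benjamini-Hochberg adjustment. In forebrain, 21 members (55.3%) had more regions than in limb, against 19% of all genes tested. Fewer regions were found at 2 members (5.26%), Grin3a and Grm6, against 17.6% of all genes. The median difference (forebrain minus limb, log2) was 0.39 over members and 0.0028 over all genes. The members are long genes, with a median length of 130.0 kb against 17.4 kb for all protein-coding genes. At 15 members the 4 forebrain counts lay above all 8 limb counts, and this held for 7.12% of all genes. No member had all limb counts above the forebrain counts, which was seen at 6.03% of all genes. The windows of Gabra4 and Gabrb1, of Gabrg3 and Gabra5, and of Gabra6 and Gabrb2 overlap, so some regions count for both genes of a pair. With only the 20000 strongest regions the calls of Grik1, Grik4, Grin1, Grin2a, Grm5, Grm7 and Slc17a6 were lost. Within 10 kb of the gene body those of Grik1, Grin2c and Grm7 were lost, and in the full lists those of Gabra6, Gabrb1, Grin1 and Grm3.

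**Figure D2:**
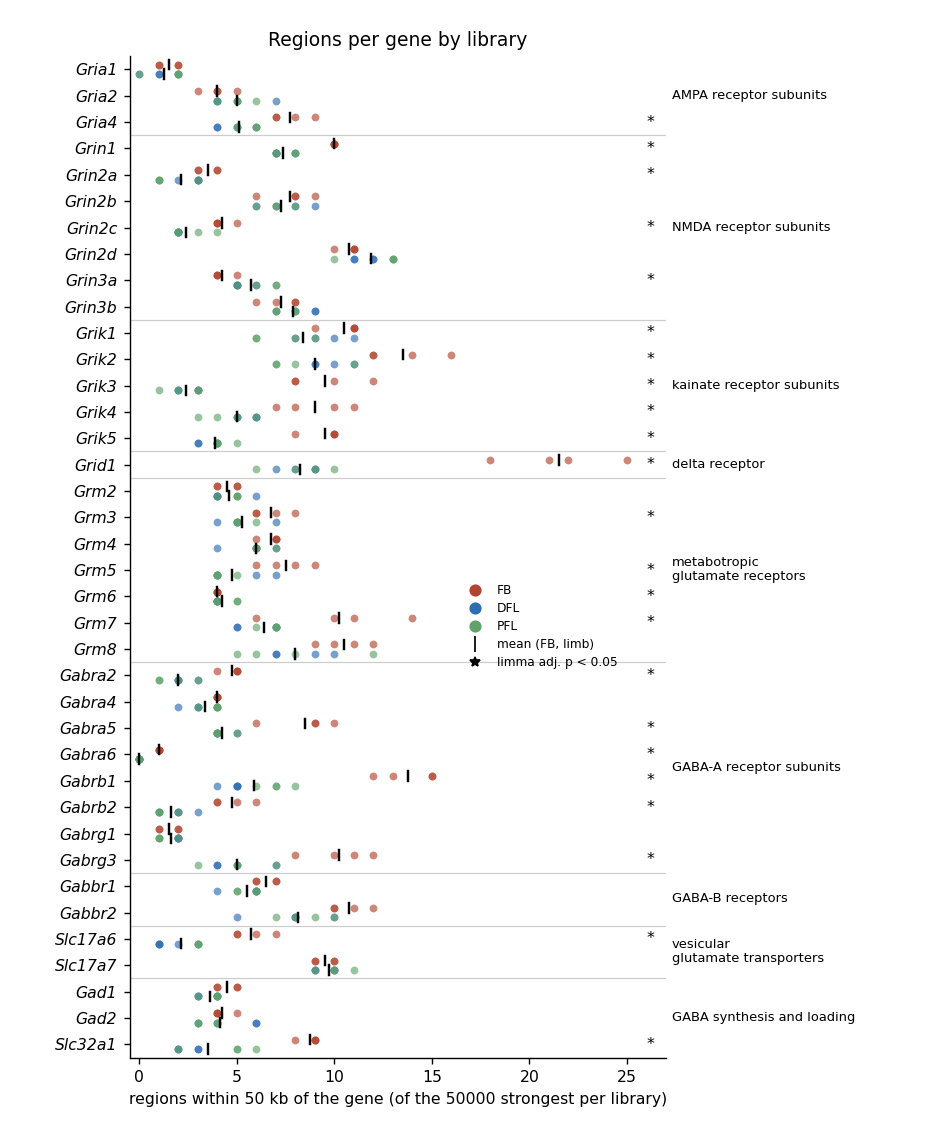
Number of regions within 50 kb of each gene, among the 50000 strongest of a library; points are libraries, vertical bars the means over 4 forebrain and 8 limb libraries, and asterisks an adjusted p below 0.05 (limma). The forebrain points of Grid1 lie between 18 and 25 regions, to the right of its limb points at 6 to 10.

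Among AMPA receptor subunits, which carry most fast excitatory current, Gria4 had more regions in forebrain and Gria1 and Gria2 did not pass. Gria4 had 8 and 9 regions in wt FB and 7 in both 542 FB libraries, and in limb the lowest, median and highest were 4, 5 and 6 (log2 difference 0.52, SE 0.05, adjusted p = 2.7e-04). The forebrain and limb counts of Gria4 did not overlap. Gria2, whose product sets the calcium permeability of the channel, averaged 4.0 ± 0.82 regions in forebrain and 5.00 ± 1.07 in limb (SD, n = 4 and 8). Gria1 averaged 1.5 ± 0.58 and 1.25 ± 0.89. In the full lists, distal regions numbered 11 to 24 per forebrain library and 5 to 17 per limb library at Gria4, 6 to 9 and 7 to 15 at Gria2, and 5 to 9 and 2 to 8 at Gria1.

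NMDA receptors pair the obligatory subunit encoded by Grin1 with Grin2 or Grin3 subunits. Of their 7 genes, Grin1, Grin2a and Grin2c had more regions in forebrain and Grin3a had fewer. Grin1 had 10 regions in each of the 4 forebrain libraries and 7 or 8 in each limb library (log2 difference 0.40, SE 0.05, adjusted p = 0.0014), so the tissues did not overlap. Most of these lay outside distal DNA, since Grin1 had only 1 or 2 distal regions per forebrain library in the full lists. There, most lay at promoters of other genes, on average 9.5 in wt FB, 8 in 542 FB and 7 to 9 in the limb groups. At promoters of Grin1 itself there were 2 in both forebrain groups. Grin2c averaged 4.25 ± 0.50 regions against 2.38 ± 0.74 (log2 difference 0.66, adjusted p = 6.4e-04) and Grin2a 3.5 ± 0.58 against 2.13 ± 0.99 (0.59, adjusted p = 0.044). The Grin2a call was lost in the exact permutation test (adjusted p = 0.148) and on leaving out any library but 542 DFL replicate 2 or 542 PFL replicates 1 or 2 (adjusted p up to 0.115). Grin3a, for a glycine-binding subunit, averaged 4.25 ± 0.50 in forebrain and 5.75 ± 0.89 in limb (log2 difference -0.36, adjusted p = 0.0082; 0.054 in the exact permutation test). For Grin3a the direction turned to 0.10 when only the 20000 strongest regions were used. Grin2b, Grin2d and Grin3b did not pass, with 7.75 ± 1.26, 10.8 ± 0.50 and 7.25 ± 0.96 regions in forebrain and 7.25 ± 1.04, 11.9 ± 1.13 and 7.88 ± 0.83 in limb. Distal regions in the full lists numbered 17 to 23 per forebrain and 9 to 21 per limb library at Grin2b, 5 to 7 and 3 to 4 at Grin2a, 6 to 10 and 3 to 8 at Grin2c, 3 to 7 and 2 to 7 at Grin2d, 5 to 9 and 7 to 15 at Grin3a, and 1 to 3 and 1 to 5 at Grin3b.

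All 5 kainate receptor genes had more regions in forebrain. Grik3 showed the largest difference of any member, with 12 and 10 regions in wt FB, 8 and 8 in 542 FB, and 1, 2.5 and 3 as the lowest, median and highest of the limb libraries (log2 difference 1.66, SE 0.19, adjusted p = 8.0e-04). Grik5, whose high-affinity subunit works only together with Grik1 to Grik3, had 10 and 10 in wt FB, 8 and 10 in 542 FB and 3, 4 and 5 in limb (1.11, SE 0.10, adjusted p = 3.0e-04). Its partner in that class, Grik4, averaged 9.0 ± 1.83 against 5.00 ± 1.07 (0.74, adjusted p = 0.0012). None of these 3 genes overlapped between forebrain and limb. Grik2 averaged 13.5 ± 1.91 against 9.0 ± 1.6 (0.54, adjusted p = 0.021), a call lost without wt FB replicate 2 (adjusted p = 0.079) or without 542 FB replicate 2 (0.078). Grik1 averaged 10.5 ± 1.00 against 8.38 ± 1.77 (0.31, adjusted p = 0.034; 0.20 in the exact permutation test), and its counts overlapped. That call was also lost without any of wt FB replicates 1 and 2, 542 FB replicate 1, wt DFL replicate 1, wt PFL replicates 1 and 2, and 542 PFL replicate 2 (adjusted p up to 0.12). Distal regions in the full lists numbered 24 to 31 per forebrain and 12 to 20 per limb library at Grik2, 21 to 24 and 5 to 11 at Grik3, 23 to 28 and 12 to 27 at Grik1, 19 to 27 and 9 to 23 at Grik4, and 8 to 12 and 4 to 7 at Grik5.

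Grid1 encodes a delta receptor, a relative of the glutamate-gated channels that organises synapses rather than passing current in response to glutamate. It had the most regions of any member in forebrain, though not in limb: 25 and 22 in wt FB and 21 and 18 in 542 FB, against 6, 8.5 and 10 as the lowest, median and highest in limb. The difference (log2 1.29, SE 0.10, adjusted p = 1.4e-04) was present in both genotypes, and even the lowest forebrain count exceeded the highest limb count. Distal regions of Grid1 in the full lists numbered 40 to 53 per forebrain library and 14 to 23 per limb library.

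Of the 7 metabotropic glutamate receptor genes, Grm3, Grm5 and Grm7 had more regions in forebrain, and in the 50000 strongest regions none of the 7 separated the libraries of the tissues completely. Grm5, for a receptor coupled to phospholipase C, had 6 and 9 regions in wt FB, 8 and 7 in 542 FB, and 4, 4 and 7 as the lowest, median and highest in limb (log2 difference 0.57, SE 0.11, adjusted p = 0.0068). Grm7, for a presynaptic receptor, ranged from 6 to 14 in forebrain and from 5 to 7 in limb (0.57, SE 0.18, adjusted p = 0.0499; 0.061 in the exact permutation test). Grm3 averaged 6.75 ± 0.96 against 5.25 ± 0.89 (0.31, adjusted p = 0.041; 0.125 in the exact permutation test). The Grm7 call was kept only on leaving out 542 FB replicate 2 (adjusted p up to 0.171 otherwise). The Grm3 call was lost without either replicate of wt FB, 542 FB or wt PFL, without wt DFL replicate 1 and without 542 PFL replicate 1 (adjusted p up to 0.138). Grm6, known from the ON bipolar cells of the retina, passed as lower on a difference of less than 1 region: it had 4 regions in every library but wt PFL, where both had 5. Grm2, Grm4 and Grm8 did not pass, with 4.5 ± 0.58, 6.75 ± 0.50 and 10.5 ± 1.29 regions in forebrain and 4.63 ± 0.74, 6.0 ± 0.93 and 8.00 ± 2.27 in limb. Distal regions in the full lists numbered 24 to 36 per forebrain and 15 to 25 per limb library at Grm7, 28 to 40 and 16 to 26 at Grm8, 15 to 23 and 5 to 11 at Grm5, 10 to 17 and 4 to 8 at Grm4, 9 to 12 and 8 to 14 at Grm3, and 3 to 4 and 3 to 7 at Grm2. In these full lists the ranges at Grm4, Grm5 and Grm8 did not overlap between the tissues. Grm6 had 0 distal regions in each, and on average 4 to 5 regions per group at promoters of other genes.

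GABA-A receptors are built mostly from alpha, beta and gamma subunits, and 6 of their 8 genes had more regions in forebrain, each without overlap between the tissues. Gabrb1 had 15 and 15 in wt FB, 13 and 12 in 542 FB and 4, 5.5 and 8 in limb (log2 difference 1.12, SE 0.08, adjusted p = 7.6e-05). Gabrb2, for the partner subunit of most adult receptors, had 6 and 5 in wt FB, 4 and 4 in 542 FB and 1, 1.5 and 3 in limb (1.16, SE 0.16, adjusted p = 0.0019). In both beta subunit genes every forebrain library stood above every limb library. Among the alpha subunits, Gabra2 averaged 4.75 ± 0.50 against 2.00 ± 0.76 (0.98, adjusted p = 7.5e-04) and Gabra5, whose subunit is typical of extrasynaptic receptors of the hippocampus, 8.50 ± 1.73 against 4.25 ± 0.46 (0.84, adjusted p = 0.0015). Gabra6, best known from cerebellar granule cells, had 1 region in each forebrain library and 0 in each limb library (1.00, adjusted p = 4.9e-10), and its call was lost in the full lists. Its counts did not vary within a tissue (SD 0 in both), so the small p of limma rests on a difference of 1 region. The log2 difference of 1.00 follows from the 1 added to each count. Gabrg3 averaged 10.3 ± 1.71 against 5.00 ± 1.41 (0.93, adjusted p = 0.0097). Gabra4 and Gabrg1 did not pass, with 4.0 ± 0.00 and 1.5 ± 0.58 in forebrain and 3.38 ± 0.74 and 1.63 ± 0.52 in limb. In the full lists Gabrb1 averaged 16.0 distal regions in forebrain and 13.6 in limb, and its count did not differ there (log2 difference 0.19, adjusted p = 0.129). Distal regions in the full lists numbered 19 to 28 per forebrain and 7 to 15 per limb library at Gabrg3, 10 to 15 and 1 to 6 at Gabrb2, 5 to 9 and 1 to 4 at Gabra5, 3 to 10 and 2 to 3 at Gabra2, 4 to 5 and 0 to 2 at Gabrg1, 1 to 5 and 1 to 7 at Gabra4, and 1 to 2 and 0 to 2 at Gabra6.

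Neither GABA-B receptor gene passed. Gabbr1 and Gabbr2, whose products form an obligatory pair, averaged 6.50 ± 0.58 and 10.8 ± 0.96 regions in forebrain and 5.50 ± 0.76 and 8.13 ± 1.64 in limb, with adjusted p of 0.137 and 0.073. Distal regions in the full lists numbered 5 to 6 per forebrain and 3 to 4 per limb library at Gabbr1, and 22 to 27 and 11 to 24 at Gabbr2.

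Of the genes that load or make the transmitters, those for the early glutamate transporter and for the GABA transporter passed, and those for the decarboxylases did not. Slc17a6, which encodes VGLUT2, had 5 and 6 regions in wt FB, 7 and 5 in 542 FB and 1, 2.5 and 3 in limb (log2 difference 1.17, SE 0.13, adjusted p = 6.7e-04). Slc32a1, which encodes VGAT, had 8 and 9 in wt FB, 9 and 9 in 542 FB and 2, 3 and 6 in limb (1.19, SE 0.20, adjusted p = 0.0045). Both separated the tissues in every library. Slc17a7, which encodes VGLUT1, averaged 9.50 ± 0.58 against 9.75 ± 0.71. Gad1 and Gad2, which encode GAD67 and GAD65, averaged 4.5 ± 0.58 and 4.25 ± 0.50 in forebrain and 3.63 ± 0.52 and 4.13 ± 1.25 in limb. Distal regions in the full lists numbered 10 to 12 per forebrain and 5 to 7 per limb library at Slc32a1, 5 to 7 and 1 to 6 at Slc17a6, 4 to 7 and 4 to 5 at Slc17a7, 2 to 6 and 2 to 8 at Gad1, and 7 to 9 and 3 to 10 at Gad2.

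To find the regions behind these counts, the 50000 strongest regions of the 12 libraries were joined into 110782 regions, and each was tested for presence by Fisher's exact test (two-sided, 4 forebrain against 8 limb libraries). Only presence in all libraries of one tissue and in none of the other passed, with an adjusted p of 0.0149. Of the 504 joined regions of the members, 75 (14.9%) were present in forebrain only, against 8.77% of all joined regions, and 12 (2.38%) in limb only, against 4.82%. Of the 75, 49 were absent from the full lists of all limb libraries too, and of the 12, 6 were absent from the full forebrain lists. How often this held over all joined regions of either kind was not counted. Of the 75, 60 lay in introns, 10 between genes, 2 in exons, 2 at promoters of members and 1 at the promoter of another gene. Among all 504 member regions, 303 lay in introns, 78 between genes and 12 in exons. Another 20 lay within other genes, 38 at promoters of members and 53 at promoters of other genes. The 75 had a median distance of 75.7 kb from the nearest start of the member. In the additional wt DFL library, which the test did not use, 0 of the 75 and 12 of the 12 were among the 50000 strongest, against 1.75% of all forebrain-only and 94.4% of all limb-only regions.

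The forebrain-only regions were spread over 28 members. Grid1 held 9, Gabrb1 7, Grik2 and Grm8 6 each, and Grik1 and Slc17a6 4 each. There were 3 each at Gria4, Grm7, Gabrb2, Gabrg3 and Slc32a1, and 2 each at Grin2a, Grik3, Grm3, Grm4, Gabra2, Gabbr2 and Gad2. Gria1, Gria2, Grin2b, Grin2c, Grik4, Grik5, Grm5, Gabra5, Gabra6 and Gabbr1 held 1 each. By role, GABA-A subunits held 17 of 70 joined regions, kainate receptors 14 of 102, metabotropic glutamate receptors 14 of 106 and the delta receptor 9 of 38. AMPA subunits held 5 of 30, NMDA subunits 4 of 79, GABA-B receptors 3 of 31, vesicular glutamate transporters 4 of 19 and the genes of GABA synthesis and loading 5 of 29. The 10 members without one were Grin1, Grin2d, Grin3a, Grin3b, Grm2, Grm6, Gabra4, Gabrg1, Slc17a7 and Gad1.

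The strongest forebrain-only region lay in an intron of Grik2, chr10:49322330-49323079, 466 kb downstream of the 5′ end, and its first sequence is printed above. The fold over the local background is the peak caller's ratio of tags at the summit to background tags, with 1 added to both. At this Grik2 region it was 16.7 and 16.6 in wt FB and 16.7 and 15.4 in 542 FB, with no limb call in the full lists. Next were an exonic region of Gabra6, chr11:42314683-42315389, with 16.0 ± 1.8 (SD, n = 4), an intronic region of Grik1, chr16:87973512-87974408, with 15.2 ± 1.3, and one of Grid1, chr14:34968893-34969802, with 15.2 ± 1.2. The Grik1 and Grid1 regions had no limb call in the full lists, and the Gabra6 region had 3. The next were in an intron of Grik3, chr4:125695935-125696804 (13.6 ± 1.2), and between genes 235 kb from the start of Gabrb2, chr11:42654122-42654805 (13.4 ± 1.5). These 2 were called in 1 and 5 limb libraries in the full lists, below the 50000 strongest.

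Further forebrain-only regions with a high fold lay in introns of Grm7, chr6:111293391-111294107 (12.9 ± 1.3), and Gabra5, chr7:57448183-57449112 (11.7 ± 1.6). Gabrb1 held a pair 10 kb apart, chr5:71976359-71977305 (12.3 ± 0.78) and chr5:71986650-71987626 (11.9 ± 2.2). Grm3, chr5:9702732-9704160 (11.8 ± 0.83), and Grik3, chr4:125544778-125546011 (11.8 ± 0.83), completed the 12 of highest fold. Each was present in both genotypes. The 75 regions had mean folds from 3.96 to 16.4 with a median of 7.81.

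The limb-only regions of the members were fewer, and 8 of the 12 were intronic. The strongest lay in Grik2, chr10:49479849-49480776, with folds of 8.68, 12.0 and 14.5 as the lowest, median and highest of 8 limb libraries and no forebrain call in the full lists. Thus Grik2 held both the forebrain-only and the limb-only region of highest fold. Next were introns of Grin2b, chr6:136130135-136130884 (10.5 ± 2.3, n = 8), and Grm4, chr17:27505399-27506053 (9.49 ± 1.6), both printed above. A region 34.9 kb upstream of Gria2, chr3:80837429-80838169 (8.09 ± 1.0), an intron of Gad2, chr2:22647834-22648982 (7.61 ± 1.4), and an intron of Gabrg3, chr7:56997564-56998575 (7.52 ± 1.5), had no forebrain call in the full lists. Those of Slc17a7, within a neighbouring gene at chr7:45191660-45192443 (7.95 ± 2.2), and Grik1, chr16:88111312-88113235 (7.58 ± 1.4), were called in 1 and 4 forebrain libraries. The other 4 lay at Grm3, Grm7 (2) and Grin2d.

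Letters under the summits were compared with all regions, as a description. TAATTA stood in the 300 bases on the summit of 27 of the 75 forebrain-only member regions (36%), in 32.5% of all forebrain-only regions, in 13.9% of all joined regions and in 9.46% of all limb-only regions. Members thus held it about as often as forebrain-only regions elsewhere. CAGATG stood in 24 of the 75 (32%) and in 27.2% of all regions, and CAGCTG in 22 (29.3%) and 25.5%. Of the 12 limb-only member regions, 5 held CAGATG and 4 CAGCTG, against 37.2% and 30% of all limb-only regions. The REST piece TTCAGCACC stood in 8 of the 504 member regions (1.59%) and 0.569% of all, and GGACAGCGC in 4 (0.794%) and 0.28%. The letters were searched on both strands, and the joined REST search above shares letters with both of its pieces. A match is a description and not a bound site.

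Most promoters of these genes were called in limb as well as in forebrain. A promoter was counted as called where a region's strongest summit lay within 1 kb of an annotated start. Of the 38 members, 28 (73.7%) had a called promoter in all 12 libraries, against 61.5% of all protein-coding genes. Only Gabra6 (2.63%) had none in any, against 26.4%. The other 9 (23.7%) were mixed, against 11.4% of all genes. None was called in all forebrain libraries only or all limb libraries only, against 0.278% and 0.406% of all genes. The folds of Gabra4 and Gabrb1 were the same in each of the 12, so 1 region counts for both genes. With summits within 500 bp of a start, 21 members (55.3%) were called in all 12 and 4 in none, against 57.7% and 28.6% of all genes, so the first comparison turned. Within 2 kb, 30 members (78.9%) were called in all 12 and 1 in none, against 63.5% and 23.6% of all genes. With the 50000 strongest regions, 25 (65.8%) were called in all 12, against 56.5%, 4 in none, against 32.3%, and 1, Slc32a1, in all forebrain libraries only. In a single library 30 to 37 of the 38 were called, and 66.2% to 68.5% of all genes.

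Among the 9 mixed promoters the transporter genes differed. That of Slc32a1 was called in all 4 forebrain libraries, with folds of 4.44 and 4.84 in wt and 3.70 and 4.81 in 542, in 0 of 4 DFL libraries and in both wt PFL libraries, at 2.57 and 2.71. It was 1 of the 2 member promoters among the forebrain-only regions, at chr2:158610475-158611304, and the other was that of Gabbr2, chr4:46991060-46992258. The Gabbr2 region had folds of 7.17, 5.58, 4.75 and 5.53 in forebrain and was still called in 7 limb libraries in the full lists. Grin2c was called in 4 forebrain, 1 DFL and 1 PFL libraries, Grik5 in 3, 1 and 0, and Slc17a7 in 2, 1 and 0. Gria1 and Grik3 were called in all but 1 PFL library. Grin3b was called in 3, 4 and 4, Grm6 in 3, 3 and 4, and Grm3 in 2, 3 and 1. Where called, the Grm3 promoter had folds of 8.02 to 12.7. Whether its summit lay beyond 1 kb in the other libraries was not tested.

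**Figure D3:**
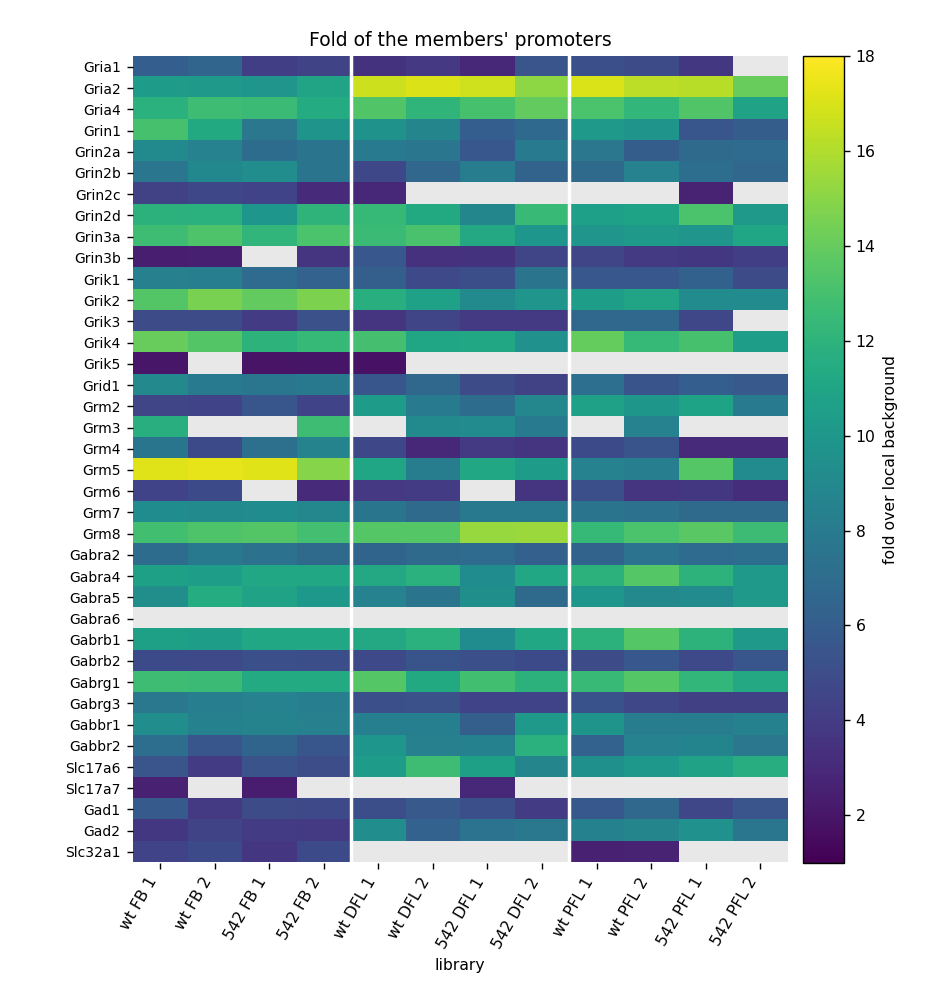
Fold over local background of the strongest promoter region of each member in each of the 12 libraries; light grey means no region called within 1 kb of a start. Gria2 is brighter in limb, Grm5 in forebrain, and Slc32a1 is grey in all DFL libraries.

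Strength was compared in regions called in all 12 libraries, as log2 of the fold centred on each library's median and tested by limma over 28404 such regions, of which 126 belonged to members. Of these, 21 (16.7%) were stronger in forebrain, against 16% of all regions, and 35 (27.8%) stronger in limb, against 23.8%, but the split turned to 53 and 19 without centring, which moved the median of all regions by 0.144 on the log2 scale. Over all 28404 regions that setting called 11122 and 3732. Forebrain then held 73.6% of the called member regions and 74.9% of all called regions. With the tags at the summit per 1000000 tags of the library (scaled tags) in place of the fold it was 46 and 20 of 102 regions, a setting added after the data were seen. Over all 22396 regions scaled tags called 6226 and 6410. Forebrain then held 69.7% of the called member regions and 49.3% of all called regions. The median difference (log2, forebrain minus limb) was -0.05 over member regions and -0.03 over all. The direction of the list as a whole was therefore not fixed, and single regions are given by the fold, with the difference in scaled tags beside it where tags could be recovered.

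Regions stronger in forebrain lay in Grik2, near Grid1 and Slc32a1 and in Gabrg3. The intronic region of Grik2, chr10:49256013-49257074, had folds of 17.2 and 19.7 in wt FB, 18.6 and 19.9 in 542 FB and 3.56, 5.44 and 6.65 as the lowest, median and highest in limb (log2 difference 1.71, SE 0.13, adjusted p = 1.9e-07). Its tags could not be recovered in forebrain. A region 9.16 kb upstream of Grid1, chr14:34810730-34811379, had 21.2 and 21.3 in wt FB, 21.8 and 21.5 in 542 FB and 9.11, 10.1 and 12.6 in limb (0.87, adjusted p = 1.4e-05; 1.05 in scaled tags). One 15.4 kb upstream of Slc32a1, chr2:158594958-158595893, had 10.1 ± 1.05 against 4.96 ± 1.27 (0.88, adjusted p = 5.4e-04; 1.16 in scaled tags). None of these 3 overlapped between the tissues. The promoter of Gabrg3, chr7:57386451-57387573, had 8.21 ± 0.30 against 4.70 ± 0.45 (0.63, adjusted p = 4.4e-04; 1.36 in scaled tags). The other 2 of the 6 largest were an intron of Grm3, chr5:9621354-9623622 (0.64; 0.57 in scaled tags), and a region 42.1 kb upstream of Grid1, chr14:34777705-34778210 (0.63; 0.57).

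Among regions stronger in limb were the promoters of Slc17a6, Gad2 and Grm2, genes of glutamate loading, GABA synthesis and presynaptic inhibition. The Slc17a6 promoter, chr7:51621510-51622268, had folds of 5.49 and 4.05 in wt FB, 5.33 and 5.01 in 542 FB and 8.74, 10.5 and 12.7 as the lowest, median and highest in limb (log2 difference -1.26, SE 0.11, adjusted p = 1.2e-06). The tags at its summit differed less, with 1.39 ± 0.15 scaled tags in forebrain and 1.65 ± 0.24 in limb (log2 difference -0.35, adjusted p = 0.027). Its local background, the other term of the fold, was 0.269 ± 0.03 scaled tags in forebrain and 0.135 ± 0.01 in limb. The Gad2 promoter, chr2:22621654-22623292, had folds of 3.74 and 4.47 in wt FB, 4.01 and 3.86 in 542 FB and 6.37, 8.16 and 9.58 in limb (-1.19, SE 0.13, adjusted p = 7.1e-06). In scaled tags it was 1.67 ± 0.17 against 1.69 ± 0.21 and the call was lost (log2 difference -0.13, adjusted p = 0.417), while its local background was 0.404 ± 0.03 against 0.188 ± 0.02. At both promoters the groups were apart in fold and in local background, and overlapped in tags.

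The Grm2 promoter, chr9:106655751-106656694, was lower in forebrain by both measures, with folds of 4.72 ± 0.54 against 9.23 ± 1.46 (log2 difference -1.13, adjusted p = 7.8e-06) and 0.722 ± 0.13 against 1.38 ± 0.32 scaled tags (-1.03). Its local background was 0.140 ± 0.02 and 0.128 ± 0.01. The other 3 of the 6 largest were introns of Grik1, chr16:88111312-88113235 (-1.46; -2.39 in scaled tags), Grm7, chr6:110744034-110745093 (-1.17; -1.44), and Grid1, chr14:34936077-34936956 (-1.03; -1.30). Of the 29 promoter regions tested, 5 (17.2%) were stronger in forebrain by the fold and 9 (31%) in limb, against 9.72% and 21% of 13520 promoter regions of all genes. The member split turned to 10 and 5 without centring (40.6% and 7.23% of all) and to 16 and 3 of 24 in scaled tags (28.1% and 27%), so it had no fixed direction either. The Gria2 promoter had 10.3 ± 0.45 in forebrain and 16.2 ± 1.07 in limb (-0.82, adjusted p = 1.1e-07). Its tags could not be recovered in every library, and with the q-value in place of the fold the call was lost (-0.19, adjusted p = 0.136). The Grm5 promoter had 16.6 ± 1.16 and 10.0 ± 1.85 (0.57, adjusted p = 3.5e-04; 1.61 in scaled tags).

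**Figure D4:**
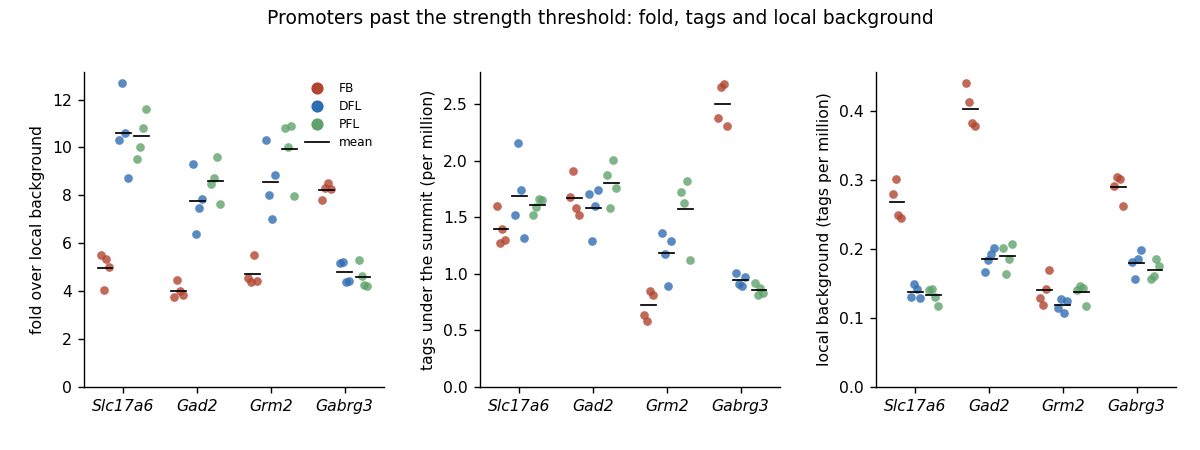
Fold, scaled tags at the summit and local background at named promoters, the last 2 per 1000000 tags of the library; points are libraries and bars tissue means. At Slc17a6 and Gad2 the forebrain points lie below the limb points in fold, overlap them in tags, and lie above them in local background.

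Distal and proximal forelimb differed at few members. By strength, 5 member regions (3.97%) were stronger in DFL, against 3.79% of all regions, and 0 in PFL, against 3.49% (limma). At an unadjusted p below 0.05, 12 of 126 member regions were stronger in PFL. The PFL count was 9 in scaled tags and 8 with the q-value in place of the fold. The share over all regions was not taken for these counts, so they cannot show an excess at members. The largest difference lay in the Grid1 intron, chr14:34936077-34936956, with folds of 8.54, 11.3, 9.44 and 8.90 in the 4 DFL libraries and 4.37, 3.74, 2.74 and 3.39 in the 4 PFL libraries (log2 difference 1.37, SE 0.20, adjusted p = 0.0013; 1.83 in scaled tags). The forebrain libraries, at 2.62 to 4.99, were in the range of PFL. The Gria4 intron, chr9:4442870-4443479, had 11.7, 10.2, 14.4 and 14 in DFL and 5.31, 5.73, 10.7 and 9.19 in PFL (0.68, SE 0.09, adjusted p = 7.5e-04; 0.71 in scaled tags), with an overlap. The others were Grin2b, chr6:135932264-135933184 (0.77, adjusted p = 0.011; 1.04 in scaled tags), and a pair in Grik2, chr10:49219546-49220537 (0.58, adjusted p = 0.020; 1.21) and chr10:49130955-49132014 (0.48, adjusted p = 0.0085; 0.66). The call of the first of the Grik2 pair was lost without wt DFL replicate 1 or 2, 542 DFL replicate 2 or wt PFL replicate 2 (adjusted p from 0.053 to 0.082).

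By presence, 4 against 4 libraries allow no adjusted call. Of the 504 member regions, 5 were in all DFL and no PFL libraries, against 2.54% of all joined regions. In all PFL and no DFL libraries were 10, against 2.02%. DFL-only regions lay in introns of Grid1, chr14:34936174-34936956 (9.56 ± 1.2), Grin3a, chr4:49666365-49667307 (8.57 ± 1.3), Grm7, chr6:110897107-110897874 (7.65 ± 0.65), and Grm8, chr6:27826989-27827802 (7.16 ± 1.5). The Grid1 region is the one already compared by strength. In the full lists it was called in all 12 libraries, with folds of 2.74 to 4.37 in PFL. PFL-only regions lay in an intron of Gria4, chr9:4459198-4460125 (11.8 ± 2.0), within a gene 121 kb from the start of Gabra4, chr5:71537150-71538072 (8.46 ± 1.1), and in introns of Grm7, chr6:111354327-111355154 (7.24 ± 0.38), and Gabrb1, chr5:72094632-72094942 (7.09 ± 2.0). Of these 8 regions, the one in Gabrb1 was also present in all 4 forebrain libraries. In numbers of regions per gene, 0 members were higher in DFL by limma, against 3.65% of all genes. At an unadjusted p below 0.05 there were 5 members, and the share over all genes was not taken at that cut. Higher in PFL by adjusted p were 3 (7.89%), against 3.33%. These were Slc17a6 with 2, 1, 1 and 1 in DFL and 3 in each PFL library (log2 difference -0.85, adjusted p = 0.018), Gabrb1 with 4 to 5 and 6 to 8 (-0.48, adjusted p = 0.026), and Grm6 with the difference of less than 1 region described above. The calls of Slc17a6 and Gabrb1 were lost with the 20000 strongest regions and in the full lists. That of Slc17a6 was also lost without 542 DFL replicate 1 or either wt PFL replicate (adjusted p up to 0.053), and that of Gabrb1 without either replicate of wt FB, wt PFL or 542 DFL or without wt DFL replicate 2 (up to 0.072).

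Between genotypes few member regions and genes passed by limma. The wt reads were mapped to the reference and 542 reads to a genome with the insertion, so that genotype and mapping cannot be told apart. By strength over the 3 tissues, 2 of the 126 member regions (1.59%) were stronger in 542, against 0.433% of all regions. In wt 1 (0.794%) was stronger, against 0.275%. The intronic region of Gria4 at chr9:4442870-4443479 was stronger in 542, with 15.3 and 14 in wt FB and 17.8 and 15.5 in 542 FB, 11.7 and 10.2 in wt DFL and 14.4 and 14 in 542 DFL, and 5.31 and 5.73 in wt PFL and 10.7 and 9.19 in 542 PFL (log2 difference 0.54, SE 0.07, adjusted p = 0.0043; 0.64 in scaled tags). Within each tissue both 542 libraries stood above both wt libraries. The Gabra2 intron, chr5:71057940-71058576, was stronger in 542 (0.56, SE 0.11, adjusted p = 0.042; 0.64 in scaled tags), a call lost without centring and on leaving out any library but 542 PFL replicate 2 (adjusted p up to 0.11).

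The Grin1 promoter, chr2:25318618-25319459, was stronger in wt. It had 13 and 11.4 in wt FB against 7.72 and 9.79 in 542 FB, 9.67 and 8.75 in wt DFL against 6.08 and 6.80, and 10.1 and 9.80 in wt PFL against 5.54 and 5.99 (log2 difference -0.53, SE 0.10, adjusted p = 0.023; -0.55 in scaled tags). The genotypes were apart in every tissue, yet the call was lost without any 1 of the 6 wt libraries, 542 FB replicate 1 or 542 DFL replicate 1 (adjusted p up to 0.093). By presence, 18 of the 504 member regions were in both wt FB and neither 542 FB library, against 1.66% of all joined regions. The other way there were 7, against 1.57%. In DFL these were 6, against 2.55%, and 10, against 2.07%. In PFL they were 11, against 2.68%, and 10, against 2.14%. With 2 against 2 libraries no test was made. Those of highest fold in wt FB lay at Gabrg3, chr7:57051299-57051801 (6.66 and 9.65), Grin2a, chr16:9672149-9672755, Grm3, chr5:9531891-9532595, and Grik4, chr9:42513135-42513629, and those in 542 FB at Grik1, Gabbr2, Grin2b and Grid1. In wt DFL they lay at Grik1, Grik3, Grik2 and Grik4, and in 542 DFL at Gad2 (2), Grm5 and Gabrg3. In wt PFL they lay at Grin2b, Grik3 and Grik4 (2), and in 542 PFL at Gabra2, Gria4, Grik2 and Grid1.

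In numbers of regions per gene, 0 members were higher in 542 by limma, against 1.44% of all genes. At an unadjusted p below 0.05 there were 6 members, and the share over all genes was not taken at that cut. Higher in wt by adjusted p was 1 (2.63%), Grm6, against 1.07%. The tissue difference of Gria4 differed between genotypes: it was smaller in 542, with 8 and 9 regions in wt FB and 4 to 5 in wt limb, and 7 in both 542 FB libraries and 5 to 6 in 542 limb (interaction -0.54 on the log2 scale, adjusted p = 0.039; 0.871% of all genes were called this way). The call was kept only on leaving out wt FB replicate 1 or a 542 DFL library (adjusted p up to 0.118 otherwise). Grm6 passed the other way (0.13, adjusted p = 0.016; 1.06% of all genes). By strength, 0 of the 28404 regions passed the interaction by limma. At an unadjusted p below 0.05 there were 3 member regions in one direction and 5 in the other. The share over all regions was not taken at that cut, so these counts cannot show an excess at members. No region passed with scaled tags or the q-value in place of the fold either.

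Other genes of the same synapses were counted in the same way, where 19% of all genes had more regions in forebrain and 17.6% fewer. Of 9 genes for transmitter uptake and metabolism, 3 had more regions in forebrain and 2 fewer. Of 10 AMPA receptor partners, 3 had more and 0 fewer. Of 6 postsynaptic scaffold genes, 2 had more and 1 fewer. Between DFL and PFL 1 of the uptake and metabolism genes was higher in DFL, and between genotypes 1 was lower in 542. None of the partners or scaffold genes passed in either comparison.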

How the data were processed

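ATAC-seq was measured in 13 libraries of E12.5 mouse tissue. Per the methods of the study, the authors trimmed reads with cutadapt, mapped them with Bowtie to mm10 or, for 542 libraries, to mm10 with the insertion, removed duplicates with Picard, converted alignments with bedtools and called peaks in each library alone with MACS2. The deposited fold is the ratio of tags at the summit to the local background of the same library, and the deposited −log10 p and −log10 q values, with a score that is a rounded form of the latter, come from the same caller. The score was not used in any result.

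Positions of 542 libraries beyond the insertion on chromosome 2 were shifted back by its length. Gene bodies and starts were from GENCODE M21. Lists were taken at the 50000 strongest regions by −log10 q and joined at an overlap of at least 1 bp. Presence was tested by Fisher's exact test, and log2 fold (centred on the library median) and log2(regions + 1) by limma 3.58.1 in R 4.3.3 with a trend and 6 group means; all adjusted p-values are Benjamini-Hochberg over all regions or genes, with a threshold of 0.05. Peak lists hold no read counts, but tags at summits were recovered as whole numbers, within 0.001, for 95.3% to 99.0% of regions. The limma fits and a Fisher's exact test with its adjustment were run on simulated data with known differences, and the other steps were not. The spread between 2 pools of embryos per group sets the precision.

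Named regions were the 12 and 8 of highest mean fold present in forebrain or limb only, the 6 per direction of largest strength difference, and the 4 per direction of highest fold between limb parts or genotypes, and every member was named. The members and lists were chosen with earlier results of these data known. Replicate numbers did not pair libraries: over 15 pairs of groups, deviations of same-numbered libraries correlated from -0.04 to 0.02. Alternatives were other list sizes, distances, thresholds, pseudocounts, scalings and measures, and leaving out each library.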

Additional observations from a re-analysis of the deposited data

Results flagged for a closer look

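At 2 members the difference between forebrain and limb in the number of regions differed between genotypes by the interaction test of limma. For Gria4 the interaction (542 minus wt, log2) was -0.54, with 8 and 9 regions in wt FB, 4 to 5 in wt limb, 7 in both 542 FB libraries and 5 to 6 in 542 limb. For Grm6 it was 0.13, which rests on 5 instead of 4 regions in both wt PFL libraries. Neither difference was called in the full lists, and the cause was not tested.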

How the results depend on the processing

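Presence in forebrain only (75 member regions) became 20 with the 20000 strongest regions, 142 with all called regions and 49 where the full limb lists also had to lack the region, and presence in limb only (12) became 1, 28 and 6. The last of these, scaled tags and the minimum of 1 region were chosen after seeing the data. DFL only (5) became 9 at a −log10 q of at least 10, 3 with 20000 and 21 with all regions, PFL only (10) became 2 with 20000, wt only over the 3 tissues (35) became 67, 10 and 124, and 542 only (27) became 12 at that q and 10 with 20000. Leaving out 1 library gave DFL only 5 to 9, wt only 38 to 58 and 542 only 34 to 47. Strength was higher in forebrain at 41 regions by −log10 q, 53 without centring and 46 by scaled tags (main 21) and in limb at 19 and 20 by the last 2 (main 35). It was higher in DFL at 8 by scaled tags (main 5) and in PFL at 8 by q, 1 after quantile normalization and 9 by scaled tags (main 0; 0 to 1 without 1 library). It was higher in 542 at 1 without centring (main 2; 1 to 2 without 1 library) and in wt at 2 by q (main 1; 0 to 2). Genes with fewer regions in forebrain (2) numbered 0 at that q and in the exact permutation test, and 1 with all regions, within 10 kb or with a minimum difference of 1 region. Genes higher in DFL (0) numbered 3 at that q, 1 with 20000 and 2 with all regions (0 to 1 without 1 library), and in PFL (3) 0 with 20000 or all regions and 1 within 10 kb (1 to 3). Higher in 542 (0) became 1 with 20000 (0 to 1) and higher in wt (1) became 7 at that q and 0 within 10 kb or with the minimum of 1 region (1 to 2). The interaction call higher in 542 (1) became 0 at that q, with all regions, within 10 kb, with a mean of at least 1 region and with the minimum of 1 region, and that higher in wt (1) became 0 with all regions and with that mean (0 to 1 without 1 library). Directions turned for Grin3a with 20000 (0.10), Grm6 at that q (0.066; its interaction -0.13, and -0.19 with all regions) and Gabrb1 between DFL and PFL with all regions (0.0021). The cause was not tested where the setting itself does not give it. The replicate numbers share no source, and a fit with them as a block gave 20 and 35 regions stronger in forebrain and limb, 1 in 542, 19 genes with more regions in forebrain, 2 higher in PFL and 0 for the wt interaction. Of all values under alternatives, 363 counts and 846 single results kept their side, 97 counts moved, and 128 single results lost their call. Few libraries per group and discrete counts of regions limit every call on single genes.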
